A study of Mus musculus with 8 samples.

Results

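The Ikaros family comprises 5 zinc finger transcription factors encoded in the mouse by Ikzf1 (Ikaros), Ikzf2 (Helios), Ikzf3 (Aiolos), Ikzf4 (Eos) and Ikzf5 (Pegasus). The members were taken by symbol from the deposited expression table, where each symbol has a single row, giving 5 of 24016 genes. Expression was measured by RNA sequencing of spleen CD4+ T cells, sorted by a green fluorescent protein reporter of Foxp3 into regulatory T (Treg) cells and reporter-negative non-Treg cells. The 8 libraries form 4 groups of 2, with replicates called A and B. Monoclonal Treg and monoclonal non-Treg cells came from NOD.TCRab.FoxP3GFP.Rag-/- mice, which carry 1 prearranged αβ T cell receptor and lack a Rag gene; the series title describes a nuclear transfer model. Polyclonal Treg and polyclonal non-Treg cells came from NOD.FoxP3GFP mice, which make a diverse receptor repertoire. All groups share the autoimmune NOD background and the Foxp3 reporter. The monoclonal mice represent 1 receptor, and Rag-deficient animals make no mature B cells and no T cells with other receptors but keep dendritic, myeloid and NK cells. Receptor, Rag genotype and mouse line changed together, so that their parts in any difference between the mice cannot be told apart. The labels do not say that replicates came from separate animals, and p-values therefore measure the spread between these libraries, which may be technical.

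Ikaros family proteins bind DNA through zinc fingers near the amino end and pair with themselves or with each other through those near the carboxyl end, so that the proteins in a cell depend on which members it transcribes. They recruit the NuRD deacetylase and remodelling complex and other corepressors, and Ikaros is required for normal lymphocyte development. In mouse Treg cells Helios is widely used as a marker of cells formed in the thymus, and Eos binds Foxp3 and takes part in silencing genes together with the corepressor CtBP1. Aiolos is best known from B cells and from helper T cells that make interleukin 17, and Pegasus is the most divergent member and recognises a different DNA motif.

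Values are CPM, the reads of a gene out of every 1000000 assigned in its library, and library depth ran from 14076330 to 19722321 reads. Fold changes are on a log2(CPM + 1) scale with their standard error (SE), from limma fitted to 12881 genes, those that reached 1 CPM in 2 or more libraries. Adjusted p-values run over all of these genes, and a gene was called at an adjusted p under 0.05. All 5 members passed the filter, and each had at least 200 reads in every library. The gene of the sorting reporter, Foxp3, measured 2709 and 2667 CPM in monoclonal Treg against 405 and 319 CPM in monoclonal non-Treg libraries, and 2349 and 2281 CPM in polyclonal Treg against 81.9 and 84.2 CPM in polyclonal non-Treg libraries. The 8 CD4 T cell markers (Cd3d, Cd3e, Cd3g, Cd247, Cd4, Cd5, Cd28 and Lat) were present in every library, with sums of 3993 to 4035 CPM in monoclonal Treg, 3459 to 3668 CPM in monoclonal non-Treg, 4427 to 5303 CPM in polyclonal Treg libraries and 5447 to 5542 CPM in those of polyclonal non-Treg cells. Markers of several other cell types were also present, in amounts that differed between the groups. The 8 conventional dendritic cell markers summed to 396 to 397 CPM in monoclonal Treg, 1497 to 1826 CPM in monoclonal non-Treg, 6.24 to 11.0 CPM in polyclonal Treg libraries and 21.1 to 21.9 CPM in those of polyclonal non-Treg cells. The 9 monocyte, macrophage and neutrophil markers summed to 301 to 1045 CPM, 648 to 754 CPM, 22.6 to 27.4 CPM and 30.2 to 35.9 CPM in the same 4 groups, and the 7 plasmacytoid dendritic cell markers to 231 to 397 CPM, 849 to 1139 CPM, 251 to 274 CPM and 206 to 226 CPM. The 12 B cell markers summed to 80.6 to 111 CPM, 418 to 435 CPM, 35.9 to 53.2 CPM and 53.5 to 75.6 CPM. In the monoclonal groups most of it came from Cd22 and Spib. In polyclonal Treg libraries the largest parts were Cd22 (18.8 to 27.3 CPM) and Cd79b (8.03 to 15.5 CPM), with Spib at 0.862 to 1.42 CPM. In polyclonal non-Treg libraries the largest part was Cd22 (40.2 to 63.3 CPM). The defining B cell gene Ebf1 was at 0 in 3 groups and Pax5 reached at most 0.11 CPM in any library. NK cell markers summed to 64.0 to 67.4 CPM, 91.7 to 100 CPM, 21.4 to 22.4 CPM and 53.4 to 58.8 CPM, and the pair of CD8 T cell markers to at most 19.8 CPM. The part of these other cells in the family's values was not tested, and in bulk libraries fewer cells of a type and less RNA per cell cannot be told apart.

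In the table's mm9 annotation Ikzf1 (NM_001025597) lies on the plus strand of chromosome 11 from 11586216 to 11672929, and Ikzf3 (NM_011771) lies on the minus strand of the same chromosome from 98326007 to 98407345. Ikzf2 (NM_011770) spans 69577784 to 69732534 on the minus strand of chromosome 1. Ikzf4 (NM_011772), the most compact of the 5 with a span of 13579 bases, occupies 128069471 to 128083049 on the minus strand of chromosome 10, and Ikzf5 (NM_175115) occupies 138532163 to 138553992 on the minus strand of chromosome 7. Transcript lengths were 5153 bases for Ikzf1, 9411 for Ikzf2, 4088 for Ikzf3, 3570 for Ikzf4 and 4384 for Ikzf5. No other gene of the table overlapped any of them, so that overlapping annotation did not enter their counts; the closest neighbours were those of Ikzf5, with Acadsb 123 bases and Pstk 811 bases away on the opposite strand.

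Treg cells were first set against reporter-negative cells of the same kind of mouse. In both kinds of mice Ikzf2, Ikzf4 and Ikzf3 were higher in Treg cells and Ikzf1 was lower, while Ikzf5 was not called. In monoclonal mice 3 of the 5 members were higher, 1 lower and 1 not called, where 24.4% of all tested genes were called, 10.8% higher and 13.6% lower. In polyclonal mice the counts were again 3 higher, 1 lower and 1 not called, where 7.90% of all tested genes were called, 4.63% higher and 3.28% lower. The libraries of the Treg and non-Treg groups did not overlap for 5 members in monoclonal and 4 in polyclonal mice, and such separation was common, at 61.0% and 47.3% of all tested genes.

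**Figure D1:**
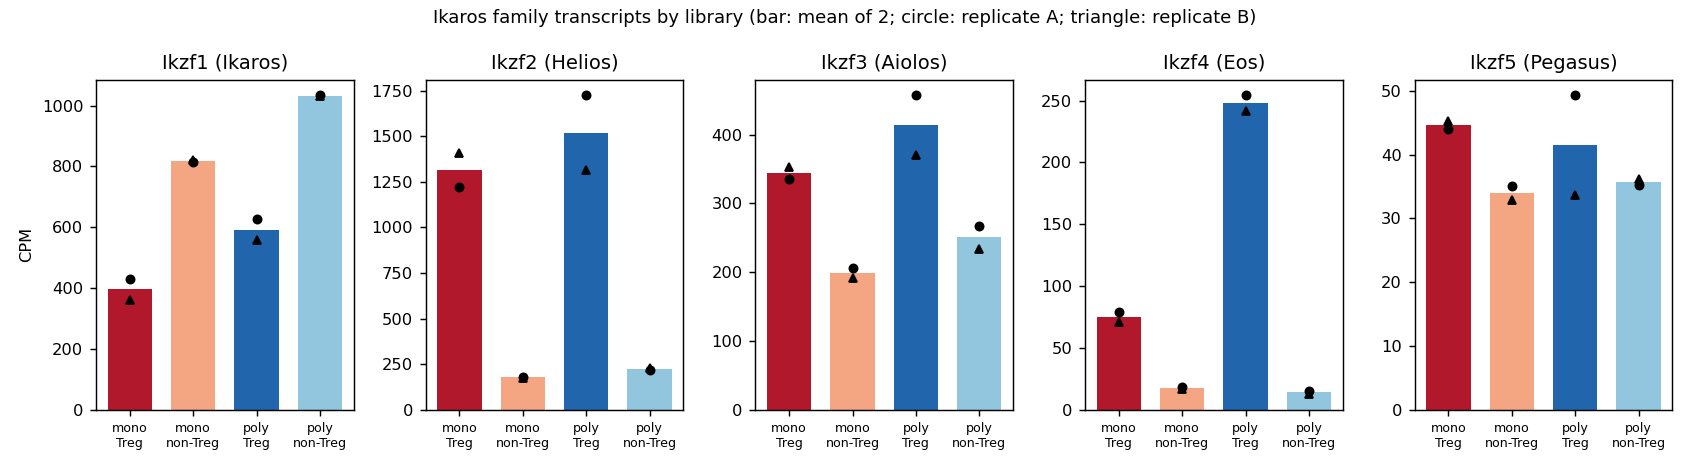
CPM of each family member in the 8 libraries, with 1 panel per gene and its own vertical axis; bars are the means of 2 libraries, circles replicate A and triangles replicate B. Ikzf2 and Ikzf4 are high in both Treg groups, Ikzf1 is high in both non-Treg groups, and the Ikzf4 bar of polyclonal Treg cells (254 and 242 CPM) stands above that of monoclonal Treg cells (79.0 and 70.6 CPM).

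Ikzf2 encodes Helios. It measured 1224 and 1409 CPM in monoclonal Treg against 178 and 176 CPM in monoclonal non-Treg libraries, and 1723 and 1314 CPM in polyclonal Treg against 217 and 227 CPM in polyclonal non-Treg libraries. Every Treg library was far above every non-Treg library, and the Treg libraries of both mice overlapped. The log2 fold change was 2.88 ± 0.13 in monoclonal mice (limma, adjusted p = 1.06e-08) and 2.75 ± 0.13 in polyclonal mice (adjusted p = 1.98e-08), which placed Ikzf2 15th and 38th from the top of the 12881 tested genes. Per kilobase of transcript, Ikzf2 exceeded 97.1% of tested genes in monoclonal Treg cells, 63.2% in monoclonal non-Treg cells, 98.0% in polyclonal Treg cells and 70.1% in polyclonal non-Treg cells.

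Ikzf4 encodes Eos, which binds Foxp3. It measured 79.0 and 70.6 CPM in monoclonal Treg against 18.1 and 17.0 CPM in monoclonal non-Treg libraries, and 254 and 242 CPM in polyclonal Treg against 15.1 and 12.9 CPM in polyclonal non-Treg libraries. Treg libraries were above non-Treg libraries in both mice, and the polyclonal Treg libraries stood apart from all others. The log2 fold change was 2.03 ± 0.17 in monoclonal mice (limma, adjusted p = 2.32e-06) and 4.06 ± 0.17 in polyclonal mice (adjusted p = 8.90e-09), ranking Ikzf4 123rd and 7th from the top. Per kilobase it exceeded 66.5% of tested genes in monoclonal Treg cells, 30.3% in monoclonal non-Treg cells, 92.4% in polyclonal Treg cells and 30.4% in polyclonal non-Treg cells.

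Ikzf3 encodes Aiolos. It measured 336 and 353 CPM in monoclonal Treg against 206 and 191 CPM in monoclonal non-Treg libraries, and 457 and 370 CPM in polyclonal Treg against 268 and 233 CPM in polyclonal non-Treg libraries. The Treg libraries were higher without overlap in each kind of mouse, but the gap was smaller than for Ikzf2 or Ikzf4. The log2 fold change was 0.79 ± 0.13 in monoclonal mice (limma, adjusted p = 0.000599) and 0.72 ± 0.13 in polyclonal mice (adjusted p = 0.00295). The polyclonal call did not hold without polyclonal non-Treg replicate B (0.62, adjusted p = 0.0871). With libraries scaled to equal CD3 transcripts the changes of Ikzf3 were 0.32 (adjusted p = 0.377) in monoclonal and 0.78 (adjusted p = 0.144) in polyclonal mice, and neither was called.

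Ikzf1 encodes Ikaros and moved the other way. It measured 431 and 362 CPM in monoclonal Treg against 816 and 822 CPM in monoclonal non-Treg libraries, and 626 and 559 CPM in polyclonal Treg against 1033 and 1032 CPM in polyclonal non-Treg libraries. The lowest non-Treg library was above the highest Treg library. Its log2 fold change was -1.05 ± 0.12 in monoclonal mice (limma, adjusted p = 2.35e-05) and -0.80 ± 0.12 in polyclonal mice (adjusted p = 0.000451). With CD3 scaling the polyclonal change was -0.74 and was no longer called (adjusted p = 0.161). Dendritic cells also transcribe Ikzf1, and their marker sums were higher in monoclonal non-Treg than in monoclonal Treg libraries. The sum of the B cell list was higher there too, most of it from Cd22 and Spib, while Ms4a1 measured at most 0.64 CPM. In polyclonal mice the conventional dendritic cell sum was 6.24 to 11.0 CPM in Treg against 21.1 to 21.9 CPM in non-Treg libraries. The B cell sum there was 35.9 to 53.2 CPM in Treg against 53.5 to 75.6 CPM in non-Treg libraries. The plasmacytoid dendritic cell sum was 251 to 274 CPM in polyclonal Treg against 206 to 226 CPM in polyclonal non-Treg libraries. Of its 7 markers, however, 0 were called higher and 2 lower in the polyclonal Treg effect. Pacsin1 and Irf8, the largest parts of that sum, were higher in polyclonal Treg libraries without overlap. Siglech, Ccr9 and Lair1 were lower there without overlap, with Siglech at 0.558 to 1.49 CPM in Treg against 7.42 to 10.9 CPM in non-Treg libraries.

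Ikzf5 encodes Pegasus. It measured 44.0 and 45.3 CPM in monoclonal Treg against 35.0 and 33.0 CPM in monoclonal non-Treg libraries, and 49.3 and 33.7 CPM in polyclonal Treg against 35.2 and 36.2 CPM in polyclonal non-Treg libraries. The polyclonal Treg replicates lay on either side of the non-Treg pair. The log2 fold change was 0.38 ± 0.21 in monoclonal mice (limma, adjusted p = 0.202, 95% interval -0.056 to 0.83) and 0.19 ± 0.21 in polyclonal mice (adjusted p = 0.741, interval -0.25 to 0.63), and -0.080 in polyclonal mice without polyclonal Treg replicate A. Over the 8 libraries Ikzf5 had the smallest standard deviation (SD) of log2 level of the 5 members, 0.22, against 0.45 for Ikzf3, 0.56 for Ikzf1, 1.52 for Ikzf2 and 1.76 for Ikzf4.

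**Figure D2:**
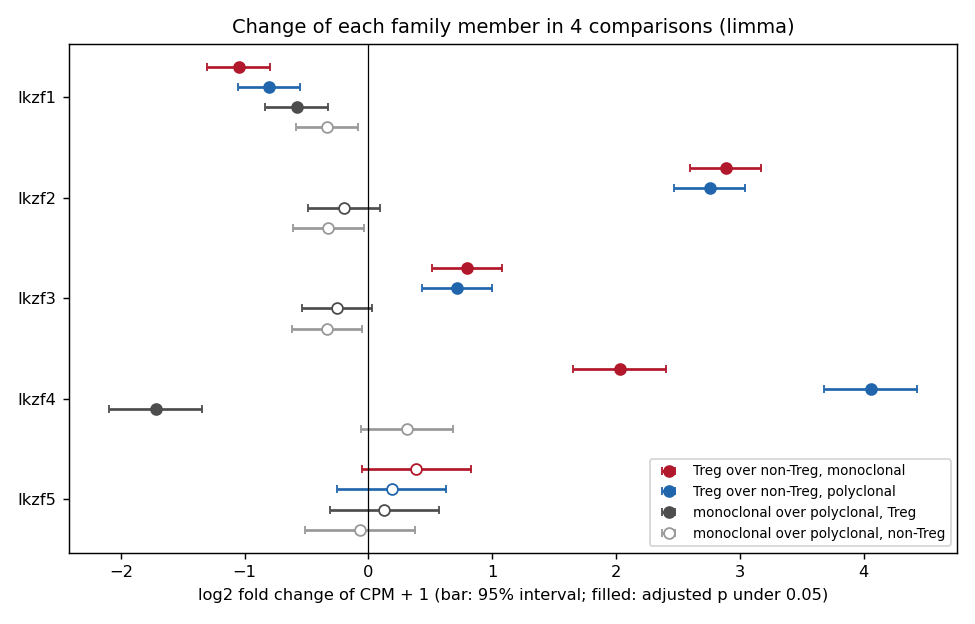
Log2 fold change of CPM + 1 for each member in 4 comparisons, with 95% intervals from limma as bars and filled points for an adjusted p under 0.05. The Treg effects of Ikzf2 in monoclonal and polyclonal mice (2.88 and 2.75) lie close together, those of Ikzf4 (2.03 and 4.06) lie apart, and all Ikzf5 intervals cross 0.

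Whether the Treg effect itself differed between the mice was tested as monoclonal minus polyclonal, a difference of log2 fold changes. Ikzf4 was the single member called, where 9.20% of all tested genes were called, 3.64% higher and 5.56% lower. Its Treg effect was smaller in monoclonal mice by a log2 difference of -2.03 ± 0.25 (limma, adjusted p = 0.000183, 95% interval -2.56 to -1.50). For Ikzf2 the difference was 0.13 ± 0.19 (adjusted p = 0.743), with an interval of -0.28 to 0.54 that leaves out a gap of the size seen for Ikzf4. The differences of Ikzf1 (-0.25, interval -0.60 to 0.11), Ikzf3 (0.078, interval -0.32 to 0.48) and Ikzf5 (0.20, interval -0.43 to 0.82) were not called, with adjusted p of 0.409, 0.850 and 0.743. With CD3 scaling the signs of the uncalled differences of Ikzf2, Ikzf3 and Ikzf5 turned to -0.40, -0.46 and -0.33, beside a median over all tested genes of -0.53, and that of Ikzf4 was -2.54.

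Among Treg cells alone, Ikzf4 and Ikzf1 were lower in monoclonal than in polyclonal mice. This made 0 members higher, 2 lower and 3 not called, where 24.2% of all tested genes were called, 12.1% in each direction. Ikzf4 in monoclonal Treg cells was 0.304 of its level in polyclonal Treg cells on the CPM + 1 scale, a log2 fold change of -1.72 ± 0.17 (limma, adjusted p = 6.53e-06). Ikzf1 had a log2 fold change of -0.58 ± 0.12 (adjusted p = 0.00246), which with CD3 scaling was -0.63 and not called (adjusted p = 0.129). Libraries of 3 members did not overlap, a separation seen for 54.1% of all tested genes, and these were Ikzf1, Ikzf3 and Ikzf4.

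Ikzf2 and Ikzf3 were not called between the Treg groups, at -0.20 ± 0.13 (limma, adjusted p = 0.323, interval -0.48 to 0.092) and -0.26 ± 0.13 (adjusted p = 0.183, interval -0.54 to 0.027). Both depend on which library of the polyclonal Treg pair is kept. Without polyclonal Treg replicate A, Ikzf2 was -0.0010 and Ikzf3 was -0.10. The other library, polyclonal Treg replicate B, was the lower of the pair for all 5 members. Without it Ikzf2 was -0.39 (adjusted p = 0.0146) and Ikzf3 was -0.41 (adjusted p = 0.0208), both called, and 4 members were called in place of 2, where 27.8% of all tested genes were called. Ikzf5 measured 0.13 ± 0.21 (adjusted p = 0.698) and -0.14 without that library. Beside these values, the marker sums of conventional dendritic cells and of monocytes, macrophages and neutrophils given above were higher in monoclonal than in polyclonal Treg libraries, with 7 of 8 and 9 of 9 markers called higher, and their part in the Ikzf1 and Ikzf4 differences was not tested.

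Among non-Treg cells, no member was called between monoclonal and polyclonal mice by limma, where 19.4% of all tested genes were called, 12.1% higher and 7.35% lower. At an unadjusted p under 0.05 limma gave 3 members, Ikzf1, Ikzf2 and Ikzf3. The share of all tested genes under that looser threshold was not counted, but it is at least the 19.4% called after adjustment. edgeR and DESeq2 on reads recovered from the CPM values called 0 members, where they called 15.3% and 18.2% of all tested genes. These 3 were called without polyclonal Treg replicate A (adjusted p = 0.0110, 0.0143 and 0.0223) and without polyclonal Treg replicate B (adjusted p = 0.0106, 0.0135 and 0.0215), which enter here through the shared estimate of the spread alone; these fits called 25.0% and 25.1% of all tested genes. They were also called when only the 4 non-Treg libraries were fitted (adjusted p = 0.00102, 0.00693 and 0.0101), a fit that called 34.3% of all tested genes. The log2 fold changes of Ikzf1, Ikzf2 and Ikzf3 were nearly equal at -0.33 ± 0.12, -0.33 ± 0.13 and -0.33 ± 0.13 (adjusted p = 0.0621, 0.113 and 0.0974), and with CD3 scaling each changed sign, to 0.15, 0.16 and 0.15. Ikzf4 measured 0.31 ± 0.17 (adjusted p = 0.257), 0.77 with CD3 scaling (adjusted p = 0.0405), and Ikzf5 -0.069 ± 0.21 (adjusted p = 0.874). The libraries of all 5 members were separated, as were those of 66.5% of all tested genes. The monoclonal non-Treg libraries hold the highest dendritic and B cell marker sums of the 4 groups, the latter mostly from Cd22 and Spib. The part of other cells in these values was not tested.

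CD3 scaling, which sets the mean log2 level of Cd3d, Cd3e, Cd3g and Cd247 equal in every library, moved the median log2 change of all tested genes. It was -0.45 with CD3 scaling and -0.015 without in the monoclonal Treg effect, and 0.39 with and -0.067 without in monoclonal against polyclonal non-Treg cells. Genes called higher and lower in the monoclonal Treg effect then numbered 422 and 3104, in place of 1396 and 1747. For monoclonal against polyclonal non-Treg cells they numbered 2393 and 125, in place of 1558 and 947, and for the difference of the Treg effects 80 and 1203, in place of 469 and 716. On that scale Ikzf2 measured 1129 and 1282 in monoclonal Treg against 205 and 247 in monoclonal non-Treg libraries, and Ikzf4 72.8 and 64.3 in monoclonal Treg against 290 and 190 in polyclonal Treg libraries, so that neither separation was lost. The factors of polyclonal Treg replicates A and B were 0.877 and 1.27. Division by them set these libraries further apart for Ikzf1 (713 and 440) and Ikzf3 (521 and 291). With CD3 scaling 2 members were called in the polyclonal Treg effect, 1 between the Treg groups and 1 between the non-Treg groups, where 4.29%, 14.0% and 19.5% of all tested genes were called.

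To compare members with each other, CPM were divided by transcript length in kilobases. In Treg cells Ikzf2 had the highest level, 140 ± 13.9 CPM per kb in monoclonal and 161 ± 30.7 in polyclonal Treg cells (SD, n = 2 each). Ikzf3 (84.2) and Ikzf1 (77.0) followed in monoclonal Treg cells, and Ikzf1 (115) and Ikzf3 (101) in polyclonal Treg cells. In both groups the libraries of these neighbours overlapped. Within a library the ratio of Ikzf3 to Ikzf1 was 0.981 and 1.23 in monoclonal Treg cells, on either side of equality, and 0.921 and 0.835 in polyclonal Treg cells, with Ikzf1 above Ikzf3 in each. Ikzf4 followed with 21.0 and 69.5 CPM per kb in monoclonal and polyclonal Treg cells, and Ikzf5 last with 10.2 and 9.47. In non-Treg cells Ikzf1 had the highest level, with 159 CPM per kb in monoclonal and 200.4 in polyclonal cells. Ikzf3 followed with 48.5 and 61.3, Ikzf2 with 18.8 and 23.6, Ikzf5 with 7.76 and 8.14 and Ikzf4 with 4.92 and 3.93 CPM per kb in monoclonal and polyclonal cells. No neighbours in the non-Treg order overlapped within a group.

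The make-up of the family therefore differed between Treg and non-Treg cells. Ikzf1 gave 23.2 ± 3.3% of the summed CPM per kb in monoclonal Treg cells against 66.5 ± 1.0% in monoclonal non-Treg cells, and 25.3 ± 1.3% in polyclonal Treg cells against 67.4 ± 1.2% in polyclonal non-Treg cells (SD, n = 2 each). Ikzf2 gave 42.1 ± 3.4% in monoclonal Treg cells against 7.88% in monoclonal non-Treg cells, and 35.2 ± 2.1% in polyclonal Treg cells against 7.94% in polyclonal non-Treg cells. The share of Ikzf3 stayed between 19.5% and 25.7% in every library. Ikzf4 held 6.31% in monoclonal Treg cells against 2.06% in monoclonal non-Treg cells, and 15.3% in polyclonal Treg cells against 1.32% in polyclonal non-Treg cells. The summed level of the family was 328 and 337 CPM per kb in monoclonal Treg against 241 and 237 in monoclonal non-Treg libraries, and 499 and 414 in polyclonal Treg against 301 and 293 in polyclonal non-Treg libraries, with no overlap in either pair. The ratio of Ikzf2 to Ikzf1 per kb was 1.55 and 2.13 in monoclonal Treg against 0.119 and 0.118 in monoclonal non-Treg libraries, and 1.51 and 1.29 in polyclonal Treg against 0.115 and 0.121 in polyclonal non-Treg libraries. These shares and ratios are within a library and do not depend on its scaling.

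**Figure D3:**
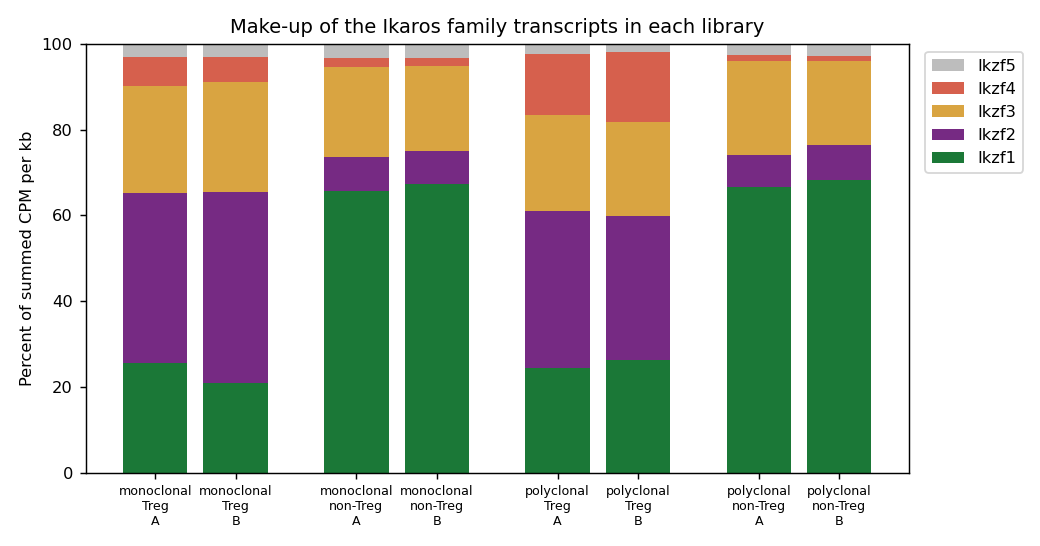
Percent of the family's summed CPM per kb given by each member in each of the 8 libraries, as stacked bars. Ikzf1 fills 65.8% to 68.3% of every non-Treg bar and 20.9% to 26.2% of every Treg bar, and the Ikzf4 segment is widest in polyclonal Treg libraries (14.3% and 16.4%).

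Ikzf2 and Ikzf4 parted in their level relative to each other. The ratio of Ikzf4 to Ikzf2 per kb was 0.170 and 0.132 in monoclonal Treg against 0.269 and 0.254 in monoclonal non-Treg libraries, and 0.389 and 0.485 in polyclonal Treg against 0.184 and 0.150 in polyclonal non-Treg libraries. It was thus lower in Treg than in non-Treg libraries of monoclonal mice and higher in those of polyclonal mice, with no overlap in either. The ratio of Ikzf4 to Foxp3 per kb was 0.0312 and 0.0283 in monoclonal Treg against 0.116 and 0.113 in polyclonal Treg libraries. The ratio of Ikzf2 to Foxp3 was 0.183 and 0.214 in monoclonal Treg against 0.297 and 0.234 in polyclonal Treg libraries. Foxp3 itself was not called between the Treg groups (log2 fold change 0.22 ± 0.12, limma, adjusted p = 0.228).

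The level that remained in the reporter-negative cells differed by gene. Ikzf2 in monoclonal non-Treg cells was 13.5% of its monoclonal Treg level, and 14.6% in polyclonal mice. For Foxp3 these shares were 13.5% and 3.59%, and for Il2ra, a chain of the interleukin 2 receptor, 14.0% and 5.57%. Ikzf4 left 23.5% in monoclonal and 5.65% in polyclonal mice, a share whose denominator, the monoclonal Treg level, was also low. Ctla4, an inhibitory receptor of Treg cells, left 13.4% and 17.6%, and Tnfrsf18, the receptor GITR, 20.8% and 28.5%. Per kb, Ikzf2 over Foxp3 was 0.178 and 0.224 in monoclonal non-Treg libraries, whereas in polyclonal non-Treg libraries it was 1.07 and 1.09. Since Foxp3 drove the sort, its shares are a description of the sort.

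**Figure D4:**
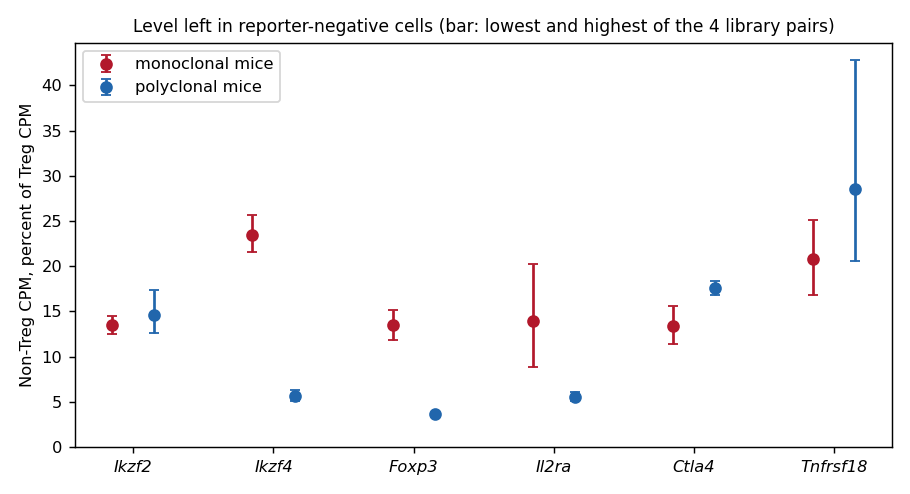
Mean non-Treg CPM as a percent of mean Treg CPM in monoclonal (red) and polyclonal (blue) mice for Ikzf2, Ikzf4 and 4 Treg markers; bars join the lowest and highest of the 4 pairings of a non-Treg with a Treg library. The ranges of Ikzf2 overlap between the mice (12.5% to 14.5% and 12.6% to 17.3%), and those of Ikzf4 do not (21.6% to 25.7% and 5.08% to 6.25%).

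Likeness of pattern was measured over the 8 libraries as the root mean square distance between mean-centred log2 levels, among tested genes whose mean log2 level reached 3. Nearest to Ikzf2 was Ctla4, with a distance of 0.202, followed by Dusp4, a phosphatase of MAP kinases, with 0.378, Tigit, an inhibitory receptor, with 0.402, Wls and Lamc1. Nearest to Ikzf4 were Rgs9 (0.442), Il2ra (0.483), Dusp4 (0.559), Itih5 and Gata1 (0.594). Il2ra averaged 514 ± 74.3 CPM in monoclonal and 842 ± 76.4 CPM in polyclonal Treg cells (SD, n = 2 each), without overlap. The nearest genes of Ikzf1 were Lss, Map4k4, Clip1, Commd8 and Atg14 at 0.120 to 0.134, those of Ikzf3 were Ppp1r16b, Arhgef12, Nipal1, Bhlhb9 and Jmjd7-pla2g4b at 0.0874 to 0.121, and those of Ikzf5 included Dek, Mier1, Ubxn7 and Rsbn1l at 0.0643 to 0.0923. Among the members the closest pair was Ikzf3 and Ikzf5 (0.299), Ikzf2 and Ikzf4 were 0.610 apart, and Ikzf1 and Ikzf4 were the farthest apart (2.04). The distance is not scaled by how much a gene varies, so genes that vary little lie close whatever their pattern. Ikzf3 and Ikzf5 varied least (SD 0.45 and 0.22, against 1.52 for Ikzf2 and 1.76 for Ikzf4), and Ikzf5, unlike Ikzf3, was not called in either Treg effect.

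Partners of the family were read from lists taken from general knowledge of the pathway. Of the 17 genes of NuRD and other corepressors, 1 was higher and 0 lower in the Treg effect of each kind of mouse, with median log2 changes of 0.020 in monoclonal and 0.061 in polyclonal mice, beside -0.015 and 0.0022 over all tested genes, of which 24.4% and 7.90% were called. Mbd2, which reads methylated DNA, was higher in monoclonal Treg cells (245 and 231 against 175 and 163 CPM; log2 fold change 0.49 ± 0.12, limma, adjusted p = 0.00799). Hdac1, a histone deacetylase, was higher in polyclonal Treg cells (42.7 and 40.7 against 22.1 and 19.6 CPM; 0.97 ± 0.28, adjusted p = 0.0495). The NuRD motor proteins Chd3 and Chd4 were lower in monoclonal than in polyclonal Treg cells, at -0.91 ± 0.12 and -0.63 ± 0.11 (adjusted p = 7.25e-05 and 0.000832), while Ctbp2 was higher at 1.54 ± 0.48 (adjusted p = 0.0308) but measured at most 4.27 CPM there. Ctbp1, the corepressor that Eos binds, was not called in the Treg effect (-0.0082 ± 0.15 in monoclonal and -0.048 ± 0.15 in polyclonal mice, adjusted p = 0.978 and 0.938).

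Of the 10 subunits of the BAF remodelling complex, 0 were higher and 2 lower in the monoclonal Treg effect, 0 either way in the polyclonal Treg effect, and 0 higher and 4 lower in monoclonal against polyclonal Treg cells. Medians of the list were -0.13, 0.011 and -0.27 in these comparisons, beside -0.015, 0.0022 and -0.025 over all tested genes. Over all tested genes 13.6%, 3.28% and 12.1% were called lower in these comparisons, so that the 2 of 10 in the monoclonal Treg effect lie near the background. Smarcb1, a core subunit, measured 38.4 and 53.7 CPM in monoclonal Treg against 78.1 and 76.9 CPM in monoclonal non-Treg libraries (-0.76 ± 0.19, limma, adjusted p = 0.00829), and the ATPase Smarca4 was also lower there (-0.39 ± 0.13, adjusted p = 0.0355). Smarcc1 (-1.03 ± 0.16, adjusted p = 0.000315) and Smarcb1 (-1.01 ± 0.19, adjusted p = 0.00121) had the largest changes of the list between the Treg groups.

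Of 11 regulators of Ikaros family protein, 2 were higher and 0 lower in the monoclonal and 0 either way in the polyclonal Treg effect, with medians of -0.00090 and -0.081 beside -0.015 and 0.0022 over all tested genes. Over all tested genes 10.8% and 4.63% were called higher, and 2 of 11 lie near that background. Crbn, the substrate receptor through which thalidomide analogues degrade human Ikaros and Aiolos, measured 85.5 and 81.8 CPM in monoclonal Treg against 56.0 and 55.6 CPM in monoclonal non-Treg libraries (0.58 ± 0.15, limma, adjusted p = 0.0110). In polyclonal mice Crbn changed by 0.035 ± 0.15 (adjusted p = 0.959), and the difference of the Treg effects, 0.54 ± 0.21, was not called (adjusted p = 0.127). Ppp1cb, a catalytic subunit of the phosphatase PP1 that acts on Ikaros, was the other gene called (0.56 ± 0.13, adjusted p = 0.00508), and its Treg effect differed between the mice (0.64 ± 0.18, adjusted p = 0.0379).

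Of 15 genes for Foxp3 and its partner factors, 3 were higher and 4 lower in the monoclonal and 5 higher and 4 lower in the polyclonal Treg effect, with medians of -0.072 and -0.025 beside -0.015 and 0.0022 over all tested genes, of which 24.4% and 7.90% were called. Foxp3, whose reporter drove the sort, is among those higher in each kind of mouse, which the sort fixed in advance. Irf4, a factor of activated Treg cells, measured 73.0 and 84.7 CPM in monoclonal Treg against 88.3 and 105 CPM in monoclonal non-Treg libraries, and 133 and 111 CPM in polyclonal Treg against 55.5 and 58.9 CPM in polyclonal non-Treg libraries. Its Treg effect was 1.07 ± 0.16 in polyclonal mice (limma, adjusted p = 0.000488) and -0.29 ± 0.16 in monoclonal mice (adjusted p = 0.210), and the difference of these effects was -1.37 ± 0.22 (adjusted p = 0.00197). Gata3, which can bind Foxp3, measured 464 and 481 CPM in monoclonal Treg against 124 and 103 CPM in monoclonal non-Treg libraries, and 149 and 168 CPM in polyclonal Treg against 108 and 119 CPM in polyclonal non-Treg libraries. Its Treg effects were 2.06 ± 0.13 (adjusted p = 2.71e-07) and 0.48 ± 0.13 (adjusted p = 0.0434), a difference of 1.58 ± 0.19 (adjusted p = 0.000174). Satb1, a chromatin organiser repressed by Foxp3, was lower in Treg cells of both mice, with log2 fold changes of -2.76 ± 0.15 in monoclonal and -0.91 ± 0.15 in polyclonal mice (adjusted p = 3.68e-08 and 0.000963).

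Of 9 genes reported to be repressed by members of the family, 7 were tested, and Il2 and Ptcra were below the filter. Of the 7, 0 were higher and 3 lower in the monoclonal Treg effect and 0 higher and 2 lower in the polyclonal Treg effect, with medians of -1.46 and -0.75 beside -0.015 and 0.0022 over all tested genes, of which 13.6% and 3.28% were called lower. Both medians are the changes of Dntt, a low gene. It measured 0 to 2.76 CPM in monoclonal Treg against 1.74 to 9.32 CPM in monoclonal non-Treg libraries. In polyclonal mice Dntt measured 1.12 to 1.35 CPM in Treg against 2.39 to 3.16 CPM in non-Treg libraries. Ifng, Hes1, Notch3 and Nrarp were also low, at no more than 16.3 CPM in any library, so the medians rest on low genes. Dtx1, a regulator of Notch signalling, was lower in Treg cells of both mice, at 102 and 81.1 against 267 and 286 CPM in monoclonal and 346 and 429 against 527 and 594 CPM in polyclonal mice (-1.59 ± 0.15 and -0.54 ± 0.15, limma, adjusted p = 3.86e-06 and 0.0342). Notch3 and Hes1 were called lower in monoclonal Treg cells but measured at most 1.13 and 3.42 CPM there. Tbx21, the Th1 factor T-bet, was lower in polyclonal Treg cells (19.0 and 14.2 against 41.9 and 46.9 CPM; -1.38 ± 0.26, adjusted p = 0.00355) and measured -0.73 ± 0.26 in monoclonal mice (adjusted p = 0.0560).

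The genes near the members were also read. Within 200 kb of Ikzf4 lay 24 genes of the table, of which 20 were tested. Over all tested genes 10.8% were called higher and 13.6% lower in the monoclonal Treg effect, and 4.63% higher and 3.28% lower in the polyclonal one. In the monoclonal Treg effect 2 of the 20 were higher and 1 lower, namely Esyt1 (0.41 ± 0.11, limma, adjusted p = 0.0140), Erbb3 (0.95 ± 0.32, adjusted p = 0.0435) and, lower, Rps26 (-0.77 ± 0.23, adjusted p = 0.0277), the neighbour 5909 bases away. In the polyclonal Treg effect 1 was higher and 2 lower, namely Suox (1.20 ± 0.27, adjusted p = 0.0112) and, lower, Esyt1 (-0.47 ± 0.11, adjusted p = 0.0143) and Dgka (-0.47 ± 0.11, adjusted p = 0.0140). Rps26 encodes a ribosomal protein with many near-identical copies in the genome, so its value is uncertain. The single neighbour of Ikzf2 within 200 kb, Spag16, was below the filter at up to 0.254 CPM. Near Ikzf3, 10 of 20 genes were tested, and Erbb2, Grb7 and Ormdl3 were higher in the monoclonal Treg effect (2.05 ± 0.36, 1.70 ± 0.50 and 0.74 ± 0.20, adjusted p = 0.000898, 0.0232 and 0.0154) and 0 in the polyclonal one. Near Ikzf1, 3 of 5 genes were tested, with Fignl1 higher in the polyclonal Treg effect (1.20 ± 0.31, adjusted p = 0.0282), and near Ikzf5, 4 of 10, with Pstk higher in the monoclonal one (0.73 ± 0.25, adjusted p = 0.0436).

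**Figure D5:**
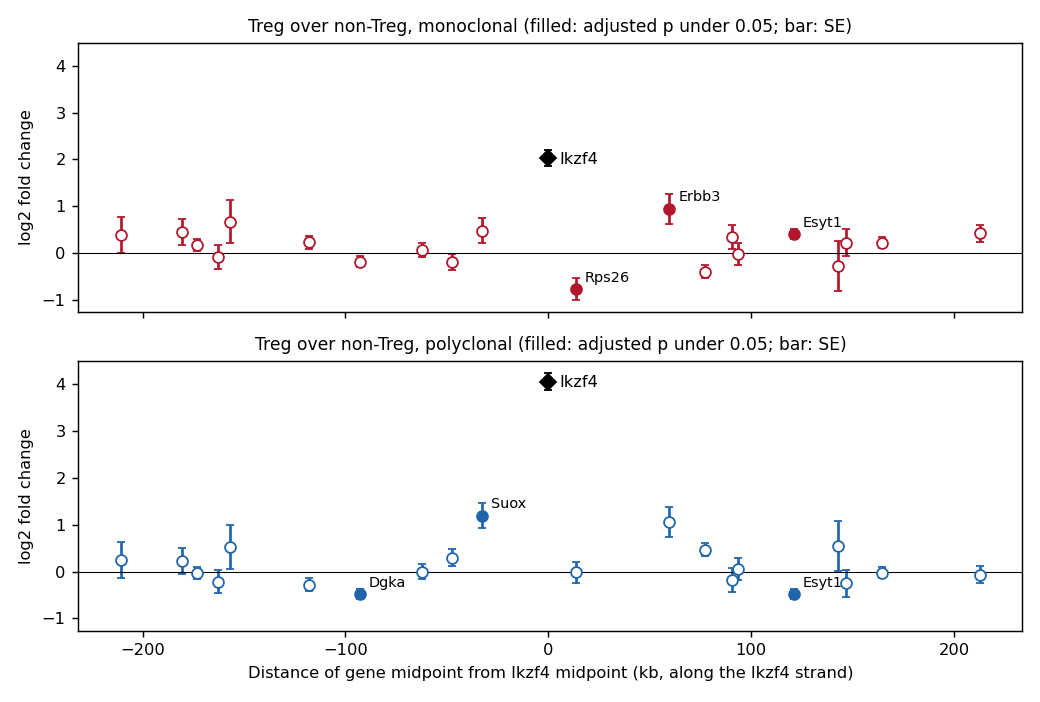
Treg effect (log2 fold change, with SE bars) of Ikzf4 (black diamond) and of the 20 tested genes within 200 kb, by distance in kb of gene midpoints along the Ikzf4 strand, in monoclonal (upper, red) and polyclonal mice (lower, blue); filled points have an adjusted p under 0.05. Ikzf4, at 2.03 and 4.06, is above all its neighbours in both panels, and the highest filled neighbours are Erbb3 (0.95) and Suox (1.20).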

How the data were processed

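Expression of 24016 mouse genes was measured in 8 poly-dT selected, strand-preserving libraries sequenced as single 50-base reads, per the labels' protocols. Software named in the submitters' processing notes comprises edgeR, HOMER 4.7, STAR 2.4.1a, Trimmomatic 0.33, FastQC 0.10.1 and CASAVA 1.8.2, with the build mm9 and no roles. The sources used here do not say whether counting used strand. The deposited values are CPM computed by the authors, and each library sums to 1000000. The deposited table also gives each transcript's length and mm9 position. Within 0.01 read, 100% of values were whole reads; 0 per-sample columns were left unused.

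Values were tested as log2(CPM + 1) by limma 3.58.1 in R 4.3.3, with trended and robust estimates of the spread and 1 mean per group over all 8 libraries (4 residual degrees of freedom), Benjamini-Hochberg adjustment over 12881 genes, 2-sided. The pseudocount understates changes of low genes. The procedure was tested on simulated data. Other settings were pseudocounts of 0.5 and 0.1, no filter, a minimum of 5 CPM, TMM and CD3 scaling, no trend or robust spread, only the libraries compared, a replicate block, edgeR 4.0.16, DESeq2 1.42.0, and leaving out each library.

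The members and lists were chosen with earlier results of these data known. Named genes are the members, up to 2 called genes each way per list and comparison, the 5 nearest patterns per member, and genes within 200 kb; 1 of the nearest patterns of Ikzf5 is not reported here. Ctbp1, Hes1 in the monoclonal Treg effect, and the further values of Irf4, Gata3, Crbn and Satb1 were added after their values were seen.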

Additional observations from a re-analysis of the deposited data

Results flagged for a closer look

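The Treg effect of Ikzf4 differed between the mice by the test of the difference itself. The log2 fold change of Treg over non-Treg cells was 2.03 in monoclonal and 4.06 in polyclonal mice, and monoclonal minus polyclonal was -2.03 ± 0.25 (limma, adjusted p = 0.000183). Across the 18 other settings that give this value it ran from -2.54 to -1.92, with adjusted p from 2.64e-14 to 0.0113. In CPM the contrast is mainly between the Treg groups (79.0 and 70.6 in monoclonal, 254 and 242 in polyclonal Treg libraries), with 18.1 and 17.0 in monoclonal and 15.1 and 12.9 in polyclonal non-Treg libraries. Foxp3, the gene of the sorting reporter, also had a smaller Treg effect in monoclonal mice (-1.89 ± 0.17, limma, adjusted p = 2.42e-05). Its contrast was mainly between the non-Treg groups (405 and 319 CPM in monoclonal, 81.9 and 84.2 CPM in polyclonal). Of 4 Treg markers (Foxp3, Il2ra, Ctla4 and Tnfrsf18), 0 were called higher and 2 lower in this difference, where 3.64% and 5.56% of all tested genes were. Between the Treg groups, marker sums of conventional dendritic cells were higher in monoclonal libraries (396 to 397 CPM in monoclonal, 6.24 to 11.0 CPM in polyclonal). Those of monocytes, macrophages and neutrophils were also higher there (301 to 1045 CPM in monoclonal, 22.6 to 27.4 CPM in polyclonal). The sums of plasmacytoid dendritic cells overlapped (231 to 397 CPM in monoclonal, 251 to 274 CPM in polyclonal). Of their 7 markers, however, 4 were called higher and 1 lower in monoclonal Treg cells. Siglech measured 20.9 to 68.1 CPM in monoclonal against 0.558 to 1.49 CPM in polyclonal Treg libraries. Pacsin1, the largest part of the polyclonal Treg sums, was lower in monoclonal Treg libraries without overlap. The part of these other cells in the Ikzf4 difference was not tested.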

How the results depend on the processing

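Of 470 recomputed fold changes of single members, 435 kept their direction and their side of the threshold. The Treg effects of Ikzf2 and Ikzf4 in both mice, that of Ikzf1 in monoclonal mice, and the Ikzf4 differences between the Treg effects and between the Treg groups kept both under all alternatives run. CD3 scaling changed most: Ikzf3 was no longer called in the monoclonal (0.32) and polyclonal (0.78) Treg effects, nor Ikzf1 in the polyclonal effect (-0.74) and between Treg groups (-0.63). It left 2 members called in the polyclonal Treg effect, 1 between Treg groups and 1 between non-Treg groups, the last being Ikzf4 (0.77). Uncalled values that changed sign with it were Ikzf5 in the monoclonal Treg effect (-0.076), the differences of the Treg effects of Ikzf2 (-0.40), Ikzf3 (-0.46) and Ikzf5 (-0.33), and monoclonal against polyclonal non-Treg for Ikzf1 (0.15), Ikzf2 (0.16), Ikzf3 (0.15) and Ikzf5 (0.41). The last also turned to 0.012 with TMM, 0.0083 with edgeR and 0.0028 with DESeq2. Without trend and robust spread, Ikzf3 in the polyclonal Treg effect was not called (0.72, adjusted p = 0.0745). With only the libraries compared, 3 members were called between non-Treg groups, Ikzf1 (-0.33), Ikzf2 (-0.33) and Ikzf3 (-0.33). The causes were not tested.

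Leaving out 1 library at a time gave 3 to 4 members called in the polyclonal Treg effect, 2 to 4 between Treg groups and 0 to 3 between non-Treg groups. In the polyclonal Treg effect Ikzf3 ran from 0.56 to 0.87 and Ikzf5 from -0.080 to 0.45. Differences of the Treg effects ran from -0.066 to 0.32 for Ikzf2, -0.074 to 0.23 for Ikzf3, with -0.021 without polyclonal non-Treg replicate A, and -0.070 to 0.46 for Ikzf5. Between Treg groups Ikzf2 ran from -0.39 to -0.0010, Ikzf3 from -0.41 to -0.10 and Ikzf5 from -0.14 to 0.40. Between non-Treg groups Ikzf1 ran from -0.34 to -0.33, Ikzf2 from -0.36 to -0.29 and Ikzf3 from -0.43 to -0.23. A group left with 1 library was assumed to vary like the others. The number of all tested genes called moved between these fits as well. The counts of members called therefore cannot be read as a change in the family alone.

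Correlations of same-letter deviations between groups lay between -0.093 and 0.097. The highest were between Treg and non-Treg cells of monoclonal (0.097) and of polyclonal mice (0.075). The labels do not say whether a letter joins samples, and correlations of this size cannot settle it. With the letter as a replicate block no call of a member changed, and 3032 genes were called in the monoclonal Treg effect in place of 3143, and 945 in place of 1018 in the polyclonal. Over all alternatives the genes called in all ran from 1306 to 3774 and from 429 to 1266 in these effects, from 361 to 1658 for their difference (1185), 1721 to 3583 between Treg groups (3116) and 1373 to 4413 between non-Treg groups (2505). Fitting only the libraries compared gives the difference no value of its own. Family shares are per kb; without division by length, 18 of 20 moved beyond the SD, Ikzf2 to 60.4% in monoclonal and 53.8% in polyclonal Treg cells.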
